A study of Homo sapiens with 12 samples.

Results

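The metallothioneins analyzed were 6 genes of the cluster at 16q13, chosen by gene name among the 58302 genes of the expression table: MT2A, MT1E, MT1X, MT1F, MT1M and MT1G. Gene expression had been measured by RNA sequencing in 4 human pancreatic cancer cell lines with 3 libraries each, 12 in all. BxPC-3 and CFPAC-1 are the parental lines, both established from pancreatic adenocarcinoma and both labelled epithelial and gemcitabine (GEM)-sensitive. BxPC-3-GR, labelled mesenchymal, and CFPAC-1-GR, labelled epithelial, are GEM-resistant lines derived from them by prolonged culture in rising GEM concentrations, so each resistant state is represented by 1 derived line. No label says whether the 3 libraries of a line came from separate cultures, and p-values therefore measure the spread between these libraries, which may be technical. The questions were how each gene differed between a resistant line and its parent, and between the 2 parental backgrounds.

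Metallothioneins are small cytoplasmic proteins without aromatic residues that bind zinc and copper, and toxic metals such as cadmium, through the sulfur of their many cysteines. Their genes are switched on by zinc through MTF1, a transcription factor that binds metal response elements in their promoters, and several, MT2A among them, also respond to glucocorticoids. MT2A is the most widely expressed member, and the MT1 genes are close copies of one another.

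The coding sequences are shown first because their likeness bears on how reads can be assigned. They were read from GENCODE 29 (GRCh38), 1 transcript a gene, 5′ to 3′, and the capitals mark cysteine codons.
MT2A: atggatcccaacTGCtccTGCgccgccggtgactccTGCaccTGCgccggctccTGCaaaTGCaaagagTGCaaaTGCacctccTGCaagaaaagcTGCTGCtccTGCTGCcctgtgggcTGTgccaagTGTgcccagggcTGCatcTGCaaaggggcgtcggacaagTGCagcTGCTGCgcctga
MT1E: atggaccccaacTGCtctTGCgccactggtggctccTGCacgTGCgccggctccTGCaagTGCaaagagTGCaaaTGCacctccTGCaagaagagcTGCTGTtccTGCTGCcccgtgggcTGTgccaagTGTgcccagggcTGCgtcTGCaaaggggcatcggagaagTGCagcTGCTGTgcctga
MT1X: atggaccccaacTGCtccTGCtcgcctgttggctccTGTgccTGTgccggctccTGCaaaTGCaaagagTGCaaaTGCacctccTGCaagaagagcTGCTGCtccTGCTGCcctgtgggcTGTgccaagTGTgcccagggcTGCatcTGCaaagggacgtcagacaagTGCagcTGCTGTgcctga
MT1F: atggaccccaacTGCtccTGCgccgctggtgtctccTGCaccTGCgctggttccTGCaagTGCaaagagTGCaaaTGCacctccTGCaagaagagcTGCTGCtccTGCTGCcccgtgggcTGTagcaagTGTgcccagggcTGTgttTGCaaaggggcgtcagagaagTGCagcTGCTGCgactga
MT1M: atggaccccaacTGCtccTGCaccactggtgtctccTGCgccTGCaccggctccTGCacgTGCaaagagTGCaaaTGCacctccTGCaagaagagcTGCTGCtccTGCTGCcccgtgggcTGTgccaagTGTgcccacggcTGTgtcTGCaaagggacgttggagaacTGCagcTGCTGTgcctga
MT1G: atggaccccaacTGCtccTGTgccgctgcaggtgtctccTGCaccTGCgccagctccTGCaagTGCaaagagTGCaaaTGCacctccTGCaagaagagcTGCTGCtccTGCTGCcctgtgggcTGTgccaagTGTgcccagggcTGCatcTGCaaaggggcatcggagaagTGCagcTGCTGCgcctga
Each held 20 cysteine codons, among 61 codons before the stop in 5 of the genes and 62 in MT1G. Between MT1F and MT1X 88.7% of aligned bases were identical, and between MT2A and MT1G 93.7%. Whole transcripts were compared by another measure, the share of 50-base windows found without mismatch in a transcript of another gene. This share was 3.02% for MT2A, 1.22% for MT1F, 7.10% for MT1E, 9.87% for MT1M, 16.5% for MT1G and 18.3% for MT1X. Reads placed with mismatches are not covered by it. At 100 bases no window of MT2A, MT1E, MT1F, MT1M or MT1G was shared, whereas 11.3% of those of MT1X also lay in AC026461.1. Values of MT1G and MT1X are therefore the more uncertain, and how reads that fit several copies were handled is not given in the sources used here.

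The 6 genes lie together on chromosome 16 (GRCh38). MT2A spans 56608199-56609497, MT1E 56625475-56627112, MT1M 56632233-56633986, MT1F 56657694-56660698 and MT1X 56682424-56684196, all on the plus strand, and MT1G spans 56666731-56668065 on the minus strand. All are annotated as protein coding. RefSeq promoter sequence (GRCh38.p14) was at hand for MT2A and MT1X, and not for MT1E, MT1F, MT1M or MT1G. The 250 bases before the RefSeq start are shown because they hold the letters of the metal response element core, TGCACNC or TGCGCNC on either strand, in capitals. Both RefSeq starts lie downstream of the starts given above. The MT2A window therefore lies within the MT2A span, and the MT1X window runs into the MT1X span.
MT2A, chr16:56608334-56608583, plus strand: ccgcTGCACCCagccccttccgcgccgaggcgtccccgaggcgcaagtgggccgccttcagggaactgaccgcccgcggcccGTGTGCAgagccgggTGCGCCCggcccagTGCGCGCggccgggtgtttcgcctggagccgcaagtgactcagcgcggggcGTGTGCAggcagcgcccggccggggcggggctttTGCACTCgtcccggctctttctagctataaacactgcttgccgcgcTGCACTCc
MT1X, chr16:56682220-56682469, plus strand: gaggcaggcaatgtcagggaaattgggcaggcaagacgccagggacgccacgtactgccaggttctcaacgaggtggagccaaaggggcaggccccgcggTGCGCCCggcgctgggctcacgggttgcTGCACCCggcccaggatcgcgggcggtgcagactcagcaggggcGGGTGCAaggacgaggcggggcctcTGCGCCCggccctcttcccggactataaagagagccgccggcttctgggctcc
The MT2A window held 7 matches, 5 on the plus and 2 on the minus strand, and the MT1X window 4, with 3 and 1. Of 35114 promoter windows of that length, 24.8% held at least 1 match, 0.370% at least 4 and 0.0313% at least 7. Outside the members, the MT1H window held 8 matches, and the MT1B and MT4 windows 3 each. These genes were listed at 0 FPKM in every library. A match describes letters and not a bound site, and its part in expression was not tested.

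Implied depth, worked out from the spacing of low values, ranged from 12600000 to 25200000 counted units per library. All 6 epithelial markers (EPCAM, CDH1, KRT7, KRT8, KRT18 and KRT19) averaged at least 1 FPKM in every line. They were not level beside the metallothioneins. In CFPAC-1-GR 4 of 6 were lower than in CFPAC-1 with a limma adjusted p below 0.05, against 34.9% of all genes. Of these 2 also had a log2FC below -1, against 11.7% of all genes. The other 2 were higher with a limma adjusted p below 0.05, for which no share over all genes was worked out. EPCAM had 86.2 FPKM in CFPAC-1 and 118 in CFPAC-1-GR. CDH1 had 21.6 and 37.5 FPKM, in that order. The median log2FC of the 6 was -0.88, and KRT19 averaged 1573 FPKM in CFPAC-1 and 531 in CFPAC-1-GR. The summed FPKM of the 6 ranged from 2636 to 2914 in CFPAC-1 and from 1156 to 1347 in CFPAC-1-GR. Of 5 leukocyte markers PTPRC was listed at 0 in all lines, whereas LYZ averaged 7.02 FPKM in CFPAC-1 and 1.34 in CFPAC-1-GR, and CD14 3.33 and 3.92. For BxPC-3-GR, labelled mesenchymal, the 6 mesenchymal markers were mixed. VIM averaged 6.59 FPKM in BxPC-3 and 0.813 in BxPC-3-GR, SNAI2 41.2 and 23.0, and ZEB1 0.0329 and 0.00333. CDH2 had 1.99 and 5.40, FN1 5.30 and 9.09, and ZEB2 0.0194 and 0.0186. Summed over the 6, FPKM ranged from 51.9 to 57.5 in BxPC-3 and from 37.4 to 39.5 in BxPC-3-GR. The part of any of these markers in the results was not tested.

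MT2A was the most highly expressed member in every line. In BxPC-3 its FPKM (fragments per kilobase, scaled to library size) was 148, 113 and 97.4 in replicates 1 to 3, and in BxPC-3-GR it was 38.9, 37.4 and 31.7. CFPAC-1 had 388, 406 and 381, and CFPAC-1-GR 164, 216 and 198. The 4 lines did not overlap, and their order from high to low was CFPAC-1, CFPAC-1-GR, BxPC-3 and BxPC-3-GR.

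MT1E, the second most abundant member, followed the same order of lines. Its FPKM was 51.4, 48.9 and 37.4 in BxPC-3, and 26.4, 29.1 and 25.1 in BxPC-3-GR. It was 119, 99.5 and 97.4 in CFPAC-1, and 87.8, 87.0 and 72.9 in CFPAC-1-GR. Again no 2 lines overlapped.

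MT1X differed in that the parental lines were alike. Its FPKM was 6.60, 6.25 and 5.59 in BxPC-3 and 6.50, 7.21 and 6.39 in CFPAC-1, and these overlapped. In BxPC-3-GR it was 2.94, 3.46 and 3.86, and in CFPAC-1-GR 3.50, 3.65 and 3.23. Both resistant lines lay below both parental lines and overlapped each other.

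MT1F and MT1M were low, and higher in the CFPAC-1 and CFPAC-1-GR libraries than in the BxPC-3 and BxPC-3-GR libraries. MT1F had 0.365, 0.510 and 0.371 FPKM in BxPC-3, and 0.292, 0.201 and 0.350 in BxPC-3-GR. In CFPAC-1 it had 3.45, 3.28 and 2.92, and 1.85, 2.61 and 1.95 in CFPAC-1-GR. Its 2 backgrounds were far apart, and each resistant line lay below its parent. For MT1F in BxPC-3-GR and BxPC-3 this rested on only 13 to 26 and 19 to 30 counted units. In 3 fits with a lower filter or none, the limma adjusted p of that pair was 0.145 to 0.165. MT1M had 0.163, 0.0961 and 0.276 in BxPC-3, and 0.524, 0.698 and 0.152 in BxPC-3-GR. In CFPAC-1 it had 1.60, 1.12 and 1.40, and 2.07, 1.76 and 1.33 in CFPAC-1-GR. For MT1M each resistant line overlapped its parent. In the BxPC-3 and BxPC-3-GR libraries its values stood for only 2 to 5 and 4 to 16 counted units.

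MT1G was near or at 0 throughout, and listed at 0 in all 6 libraries of CFPAC-1 and CFPAC-1-GR. In BxPC-3 it had 0.0817, 0 and 0.0832 FPKM, and in BxPC-3-GR 0.197, 0.0987 and 0.229, which correspond to at most 2 and 8 counted units. At this depth no difference could be assessed, and MT1G did not reach the mean of 1 FPKM required for testing in any comparison.

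**Figure D1:**
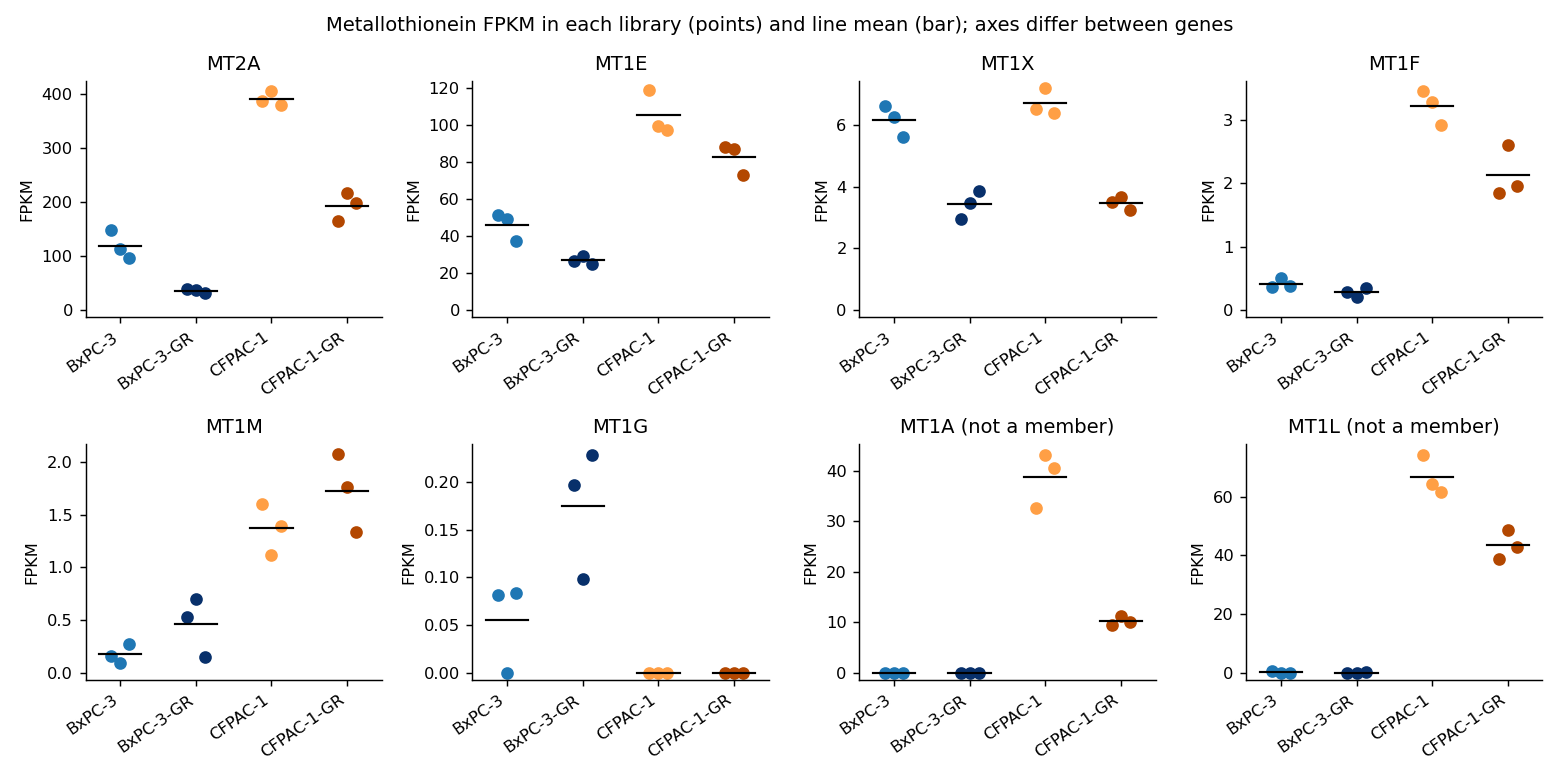
FPKM of the 6 members and of MT1A and MT1L in each of the 12 libraries (points) with the mean of each line (bar), each panel with its own axis from 0. MT2A lies between 381 and 406 in CFPAC-1 and between 31.7 and 38.9 in BxPC-3-GR, and MT1A is at 0 in all BxPC-3 and BxPC-3-GR libraries.

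In BxPC-3-GR, the 3 members that could be tested were lower than in BxPC-3. In bulk RNA, fewer cells expressing a gene and less RNA of it per cell cannot be told apart. MT2A averaged 36.0 ± 3.80 against 119 ± 25.7 FPKM (SD, n = 3 each). On the log2(FPKM + 1) scale its log2 fold change (log2FC) was -1.69 (SE 0.163, 95% confidence interval -2.08 to -1.29, limma adjusted p = 0.00030). MT1E had a log2FC of -0.74 (limma adjusted p = 0.0035) and MT1X of -0.70 (limma adjusted p = 0.0013). Genes with a limma adjusted p below 0.05 and a log2FC beyond 1 in size are called significantly differentially expressed (SDE). By this rule 1 of the 3 tested members, MT2A, was SDE and lower, against 3.62% of all 11710 genes tested, and all 3 had an adjusted p below 0.05 and lower values, against 31.5%. The libraries of the 2 lines did not overlap for any of the 3, against 36% of all genes lying lower in this way. The median log2FC of the 3 was -0.74, and that of all genes tested -0.05. MT1F, MT1M and MT1G were too low to test.

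MT2A held its call in BxPC-3-GR in each of 17 other settings, with log2FC from -1.82 to -1.52. An exact permutation test of MT2A alone gave p = 0.1, the smallest that 3 libraries against 3 allow.

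In CFPAC-1-GR, 4 of the 5 tested members were lower than in CFPAC-1. MT2A averaged 193 ± 26.4 against 392 ± 13.1 FPKM (SD, n = 3 each), equal to a log2FC of -1.03 (SE 0.109, 95% confidence interval -1.29 to -0.77, limma adjusted p = 0.00011). MT1X had a log2FC of -0.79 (limma adjusted p = 6.6e-05), MT1F of -0.43 (limma adjusted p = 0.0087) and MT1E of -0.35 (limma adjusted p = 0.025). MT1M had a log2FC of 0.19 with a 95% confidence interval from -0.10 to 0.49 (limma adjusted p = 0.19). MT2A was the 1 member SDE and lower, against 11.7% of 12051 genes tested, and 4 of 5 had an adjusted p below 0.05 and lower values, against 34.9%. For the same 4 all CFPAC-1-GR libraries lay below all CFPAC-1 libraries, as for 36.4% of all genes. The median log2FC of the 5 was -0.43, and that of all genes 0.13.

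The change between CFPAC-1 and CFPAC-1-GR moved with GC content. Over 12030 genes, log2FC of CFPAC-1-GR against CFPAC-1 and the GC content of the longest transcript had a Spearman correlation of -0.777. Over 11685 genes the correlation was 0.0388 for BxPC-3-GR against BxPC-3. Both are descriptions across genes, which share libraries. MT2A, with 53.9% GC, lay in CFPAC-1-GR above 11.4% of the 766 genes within 1 percentage point of its GC content, whose median log2FC was -0.33. In BxPC-3-GR it lay above 1.23% of 648 such genes. MT1E lay above 45.5% of its CFPAC-1-GR group and MT1F above 62.7%.

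After correction for GC content and length, the lower values in CFPAC-1-GR were largely lost. MT2A had a log2FC of -0.36 and was no longer SDE, MT1X had -0.16 (limma adjusted p = 0.12), and MT1E and MT1F turned to 0.29 and 0.53. MT1M became SDE and higher, with a log2FC of 1.39, so a count of 1 stood for a different gene. In BxPC-3-GR the same correction gave -1.63 for MT2A, -0.68 for MT1E and -0.64 for MT1X. The correction moved MT2A from -1.73 to -0.96 between the parental lines, and from -2.39 to -2.26 between the resistant lines. The share of all genes SDE went from 32.2% to 9.43% in CFPAC-1-GR against CFPAC-1. That share went from 44.5% to 27.0% between parental lines and from 17.1% to 16.9% between resistant lines. Whether the trend lies in the CFPAC-1 or the CFPAC-1-GR libraries was not tested. MT2A in CFPAC-1-GR also fell short of the SDE threshold without CFPAC-1-GR replicate 1, at -0.92.

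**Figure D2:**
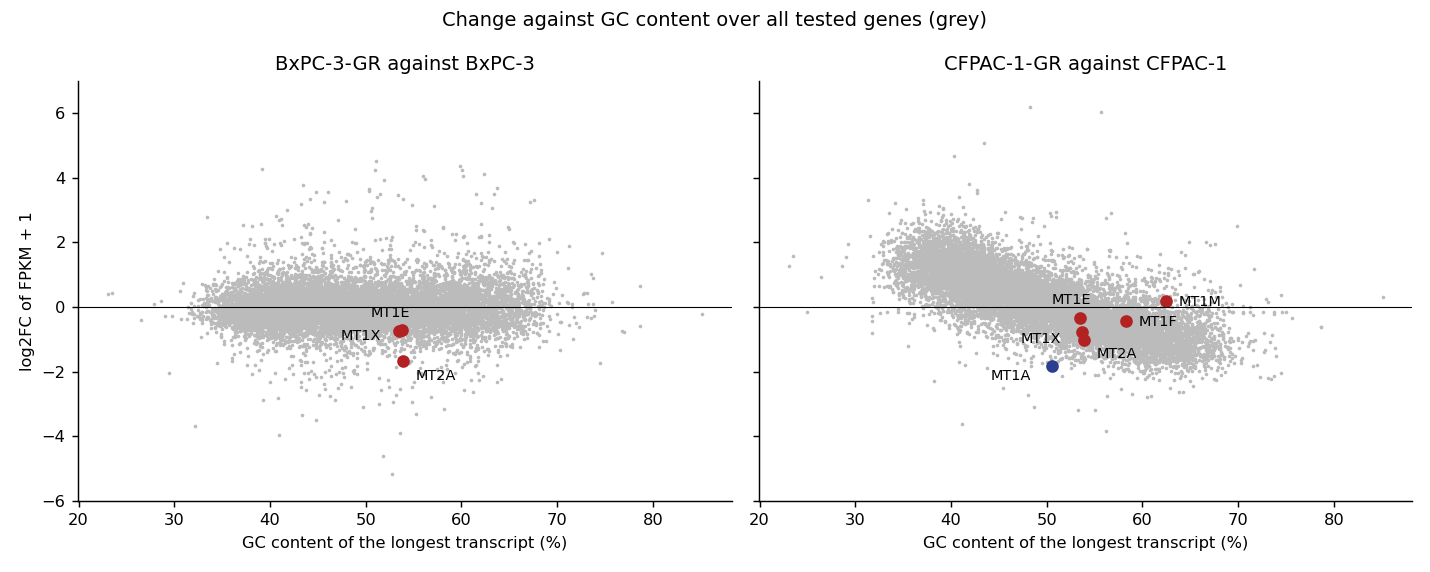
log2FC of log2(FPKM + 1) against GC content of the longest transcript (%) for every tested gene (grey), the members (red) and MT1A (blue). BxPC-3-GR against BxPC-3 is on the left and CFPAC-1-GR against CFPAC-1 on the right. The cloud slopes down with GC content in CFPAC-1-GR (Spearman -0.777) and lies level in BxPC-3-GR (0.0388), where MT2A sits at -1.69, in its lower part.

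The difference of response, the log2FC of BxPC-3-GR minus that of CFPAC-1-GR, was tested in 1 fit of all 12 libraries. For MT2A it was -0.66 (SE 0.207, limma adjusted p = 0.013), a larger decrease in BxPC-3-GR, while the median of all genes was -0.22. It was -0.40 for MT1E (limma adjusted p = 0.066), 0.09 for MT1X (95% confidence interval -0.18 to 0.36) and 0.29 for MT1F (95% confidence interval -0.01 to 0.58), which reached a mean of 1 FPKM only through CFPAC-1 and CFPAC-1-GR. None of the 4 was SDE in this test, against 38% of all 12210 genes in either direction, and 1 of 4 had an adjusted p below 0.05, against 76.6%. For MT2A the difference depended on scaling, being -0.30 (limma adjusted p = 0.21) with median-of-ratios scaling and -1.30 (limma adjusted p = 0.00015) after GC and length correction. For MT1E it was 0.078 with upper-quartile scaling, and just beyond -1, and so SDE (limma adjusted p = 0.00027), after the correction.

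Between the parental lines, MT2A, MT1E and MT1F were lower in BxPC-3 than in CFPAC-1. MT2A was 3.28 times as high in CFPAC-1 (log2FC of BxPC-3 against CFPAC-1 -1.73, limma adjusted p = 3.9e-05). MT1E was 2.29 times as high (log2FC -1.19) and MT1F 7.74 times as high (log2FC -1.57), the ratio being of mean FPKM. These 3 of 4 tested members were SDE and lower in BxPC-3, where the share over all 11842 genes was 19.8%. By adjusted p alone the share over all genes was 39.4%, and by lack of overlap 40.1%. MT1F, at 0.416 FPKM in BxPC-3 and 3.22 in CFPAC-1, passed the filter only through the line where it was high and had to differ, so the count supports nothing by itself. MT1X had a log2FC of -0.11, with a 95% confidence interval from -0.29 to 0.08. After GC and length correction MT2A, MT1E and MT1F had -0.96, -0.46 and -0.54, none of them SDE though each with an adjusted p of at most 0.013, and MT1X had 0.62 (limma adjusted p = 0.00041).

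Between the resistant lines the same 3 members were SDE and lower in BxPC-3-GR, where the share over all 12330 genes was 10.3%. With MT1M, 4 of 5 tested members had an adjusted p below 0.05 and lower values without overlap, where the shares over all genes were 37.3% and 40.4%. MT1F and MT1M reached a mean of 1 FPKM only through CFPAC-1-GR, where they were high, so these counts are given as a description. Without CFPAC-1-GR replicate 2 both fell under the filter and were not tested. MT2A was 5.36 times as high in CFPAC-1-GR (log2FC -2.39, limma adjusted p = 8.0e-06), MT1E 3.08 times (log2FC -1.58) and MT1F 7.62 times (log2FC -1.29). MT1M had a log2FC of -0.91 (limma adjusted p = 0.0028), and MT1X of -0.02 with a 95% confidence interval from -0.24 to 0.20. After GC and length correction MT2A, MT1E and MT1F stayed SDE, at -2.26, -1.45 and -1.23. These comparisons share their libraries with those within each line and are not independent of them.

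**Figure D3:**
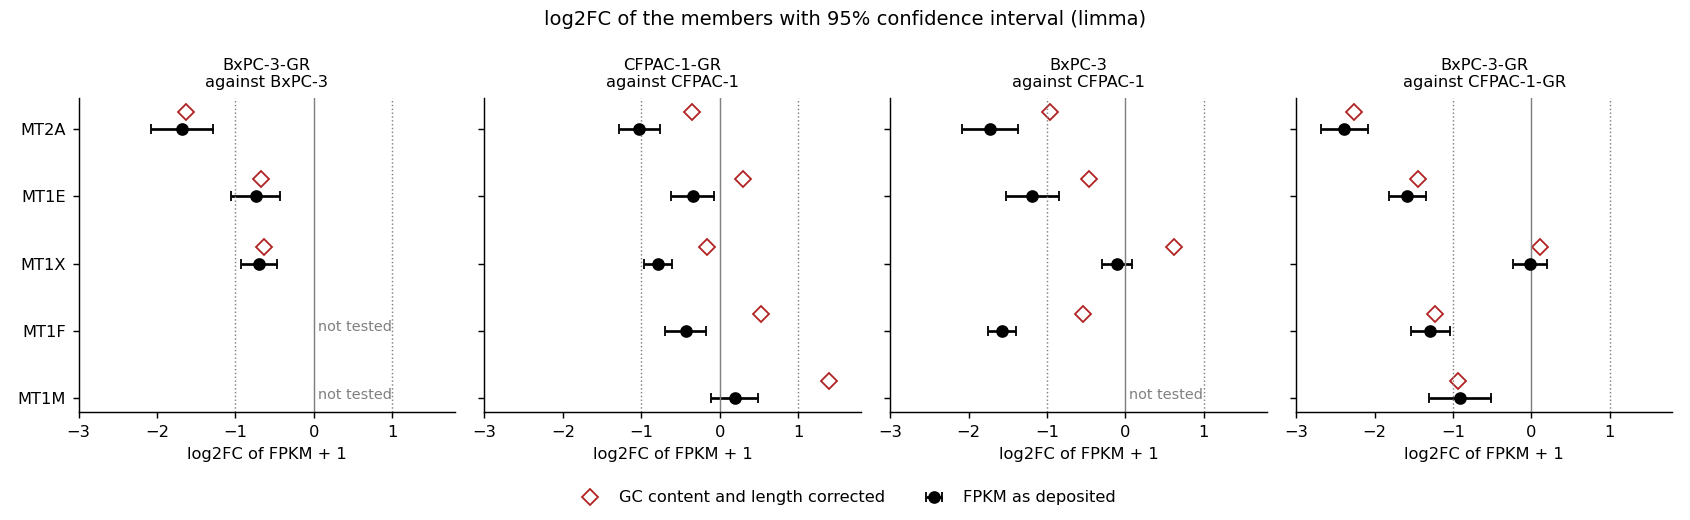
log2FC on the log2(FPKM + 1) scale of 5 members in the 4 comparisons of lines, with the 95% confidence interval from limma (black) and the value after GC and length correction (open red diamonds). The dotted lines mark -1 and 1. In CFPAC-1-GR the diamonds lie to the right of the black points, with MT2A at -0.36 against -1.03, whereas in BxPC-3-GR they lie close to them.

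The summed FPKM of the 6 members was 172 ± 32.7 in BxPC-3, 67.2 ± 5.11 in BxPC-3-GR, 508 ± 16.8 in CFPAC-1 and 283 ± 26.4 in CFPAC-1-GR (SD, n = 3 each). MT2A made up 69.2%, 53.5%, 77.1% and 68.1% of it, in that order. The balance of MT2A to MT1E thus shifted within each pair of lines. The ratio of MT2A to MT1E was 2.60 ± 0.279 in BxPC-3 and 1.34 ± 0.117 in BxPC-3-GR (SD, n = 3 each). For CFPAC-1 it was 3.75 ± 0.431 and for CFPAC-1-GR 2.36 ± 0.437. Neither pair overlapped. The size of the ratio depends on the length used for FPKM: low values of genes with several transcripts came out whole when exons were summed separately (3073 bases for MT2A, 1532 for MT1E) and seldom when overlapping exons were joined (1299 and 1052). With joined exons, a choice made after seeing the data, the 4 ratios became 4.22, 2.18, 6.10 and 3.83, in the same order. All 4 are multiplied by the same factor, so the direction within each pair could not change.

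**Figure D4:**
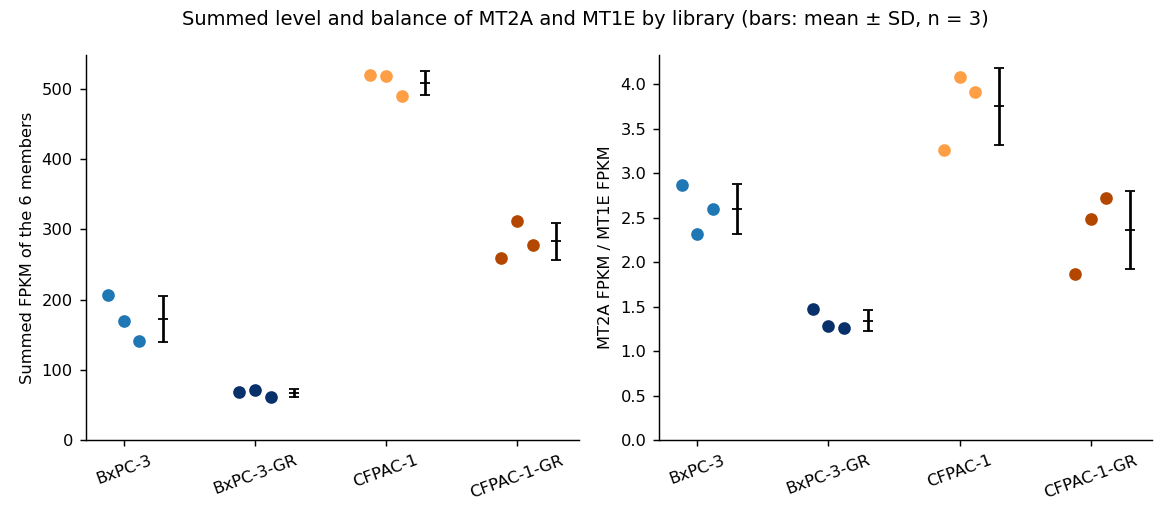
Summed FPKM of the 6 members (left) and the ratio of MT2A to MT1E FPKM (right) in each library (points), with mean ± SD of the 3 libraries of a line (black). Summed FPKM averages 172 in BxPC-3 and 67.2 in BxPC-3-GR, and the ratio 2.60 and 1.34.

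Among the 14 other metallothionein genes and pseudogenes of the table, several were found only or almost only in the CFPAC-1 background, MT1A and MT1L at the highest levels. MT1A, a coding member of the cluster, was listed at 0 in all 6 BxPC-3 and BxPC-3-GR libraries. It had 32.8, 43.2 and 40.6 FPKM in CFPAC-1 and 9.38, 11.2 and 10.1 in CFPAC-1-GR. The resistant libraries all lay lower, with a log2FC of -1.82 (SE 0.120, limma adjusted p = 1.4e-05), and the value after GC and length correction was -1.54. The pseudogene MT1L had a like distribution, averaging 66.8 ± 6.65 FPKM in CFPAC-1 and 43.5 ± 4.89 in CFPAC-1-GR, with at most 0.706 in any BxPC-3 or BxPC-3-GR library. Its log2FC in CFPAC-1-GR was -0.61 (limma adjusted p = 0.0017), and -0.03 after correction. MT1DP, MT1JP and MT3 were also listed at 0 in all BxPC-3 and BxPC-3-GR libraries, with at most 2.02 FPKM, for MT1DP, in a CFPAC-1 or CFPAC-1-GR library. MT1B, MT1H and MT4 were listed at 0 throughout.

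Zinc sensing and transport genes did not show 1 common direction. In BxPC-3-GR 0 of 15 tested were SDE by limma, against 7.76% of all genes in either direction. Of the 15, 6 had an adjusted and an unadjusted p below 0.05 in either direction, against 57.7% of all genes, and the median log2FC was -0.08. MTF1, the zinc-sensing activator of metallothionein genes, had a log2FC of 0.56 (limma adjusted p = 0.0015) there, and in CFPAC-1-GR it was SDE and higher, at 1.02 (limma adjusted p = 3.6e-05). In CFPAC-1-GR 6 of 17 were SDE and higher and 2 SDE and lower, against 32.2% of all genes in either direction. The 4 with the largest change were SLC30A1, which exports zinc from the cell (log2FC 2.23), SLC39A10 and SLC39A6, which import it (2.17 and 1.85), and SLC30A9 (1.96). After GC and length correction 3 of the list were SDE: SLC30A1 at 1.16, SLC39A6 at 1.12 and SLC39A10 at 1.03.

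Of the copper handling genes, 0 of 10 were SDE in BxPC-3-GR by limma, against 7.76% of all genes in either direction. Of the 10, 5 had an adjusted and an unadjusted p below 0.05, against 57.7% of all genes. In CFPAC-1-GR the copper pump ATP7A was higher (log2FC 1.21) and SCO2, a copper chaperone of cytochrome oxidase, lower (-1.58), among 9 tested, against 32.2% of all genes SDE in either direction, and both lost the call after correction, when the copper chaperone ATOX1, named after its value was seen, was SDE and lower (-1.36). The table holds 2 overlapping rows for SCO2, so its value is uncertain. Of the heavy metal stress genes 0 of 6 were SDE in BxPC-3-GR by limma, against 7.76% of all genes in either direction. Of the 6, 5 had an adjusted and an unadjusted p below 0.05, against 57.7% of all genes. In CFPAC-1-GR 1 of 7 was SDE, below the 32.2% of all genes, the chaperone HSPH1 (log2FC 1.29, and 0.20 after correction).

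Of the glucocorticoid receptor and its common targets, 7 of 8 were higher in BxPC-3-GR with an adjusted p below 0.05, against 26.2% of all genes, and FKBP5 was lower (log2FC -0.65). There 3 of 8 were SDE and higher, against 7.76% of all genes in either direction: CEBPD, a transcription factor (log2FC 1.70), ERRFI1, an inhibitor of EGFR (1.30), and TSC22D3, known as GILZ (1.09). In CFPAC-1-GR 2 of 8 were SDE and higher, NR3C1, the receptor itself (1.97), and FKBP5, its co-chaperone (1.03), against 32.2% of all genes SDE in either direction. In that line 4 of 8 had an adjusted p below 0.05 and higher values. The share of all genes higher in this way was not worked out, so this count is only a description. Another 3 of 8 had an adjusted p below 0.05 and lower values, close to the 34.9% of all genes. These were CEBPD at -0.97, TSC22D3 at -0.66 and PER1 at -0.60, the last a clock gene. None of the list was SDE there after correction.

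Genes around the cluster were also often lower in BxPC-3-GR. Of 16 tested genes other than metallothioneins within 1000 kb of MT2A, 10 had an adjusted p below 0.05 and lower values, against 31.5% of all genes, with a median log2FC of -0.43. MT2A, at -1.69, lay below the lowest of them, OGFOD1, an oxygenase of the ribosome, at -1.05 (limma adjusted p = 0.0039), and NUP93, a nuclear pore protein, had -0.88. MT1E and MT1X lay within their range. CCL22, a chemokine, was the 1 gene SDE and higher, at 2.18. In CFPAC-1-GR 7 of 18 were lower with an adjusted p below 0.05, against 34.9% of all genes, and the median was -0.16. NUDT21 (1.23), an RNA cleavage factor subunit, and RSPRY1 (1.39) were SDE and higher there, and lost the call after GC and length correction. After that correction PLLP, named after its value was seen, was SDE and lower (-1.03, limma adjusted p = 5.9e-05).

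**Figure D5:**
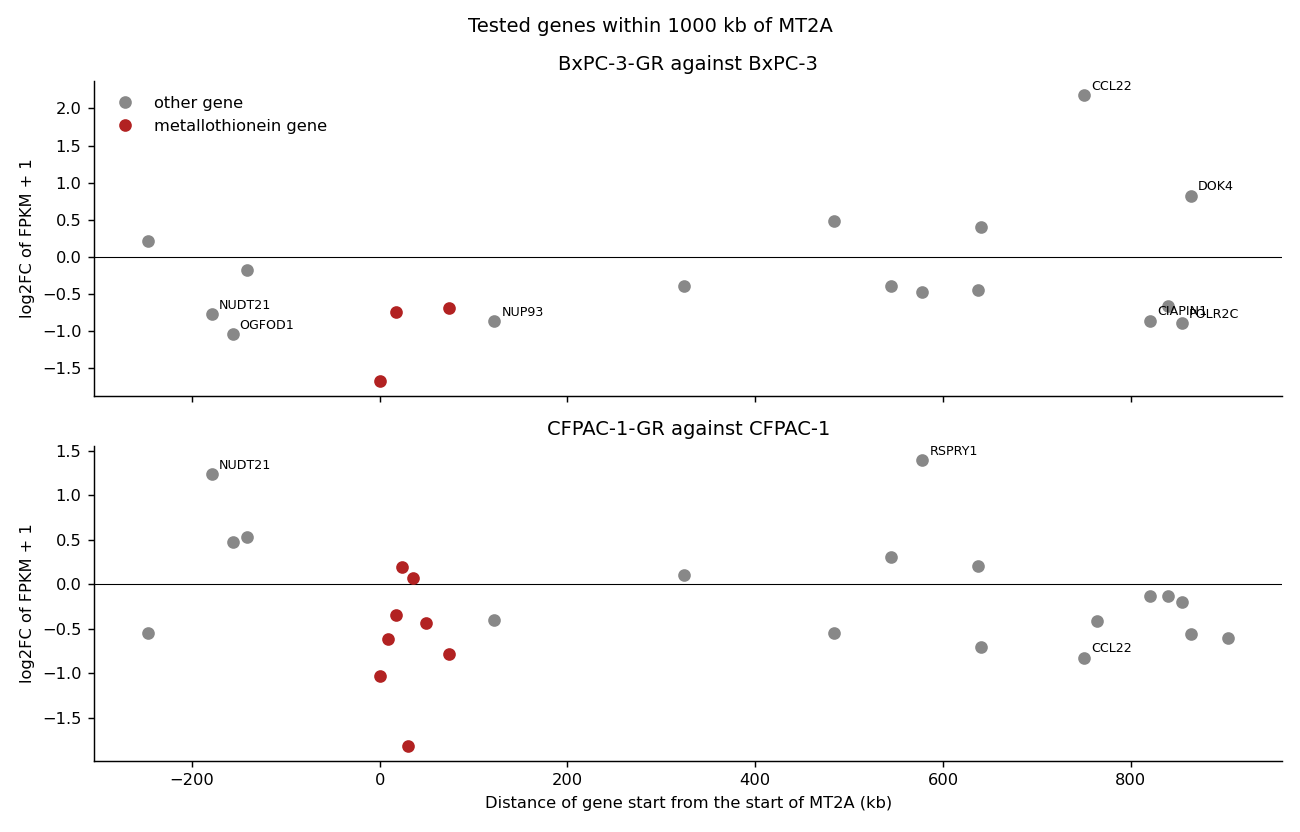
log2FC on the log2(FPKM + 1) scale against distance of the gene start from that of MT2A (kb) for tested genes within 1000 kb, metallothionein genes in red and others in grey, in BxPC-3-GR (top) and CFPAC-1-GR (bottom). In BxPC-3-GR MT2A is the lowest point at -1.69, and the other genes have a median of -0.43.

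Genes whose log2(FPKM + 1) was among the most like that of MT2A over the 12 libraries, of 12206 ranked, were ATIC (Pearson r = 0.991), PSMC4 (0.990), HNRNPAB (0.990) and CAMK2N1 (0.988). HNRNPAB binds RNA, ATIC acts in purine synthesis, PSMC4 is a proteasome subunit and CAMK2N1 inhibits a calmodulin-dependent kinase. PSMC4 averaged 41.8 FPKM in BxPC-3, 16.1 in BxPC-3-GR, 104 in CFPAC-1 and 55.8 in CFPAC-1-GR. The 12 points share 4 lines, so the likeness largely describes the 4 line means.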

How the data were processed

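RNA was sequenced from 12 libraries of 4 cell lines, 3 per line, and groups were taken from the sample labels. The authors deposited 1 table of FPKM for 58302 genes, and no counts or depths. The submitters' processing notes name Trimmomatic 0.27, FastQC 0.10.1 and TopHat2 2.0.8, and both hg19 and GRCh38; positions in the table equalled those of GENCODE 29 (GRCh38) for 97.5% of 57980 genes matched by identifier and for all 6 members. The step that made FPKM is not given in the sources used here. Labels and methods name different media for CFPAC-1.

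FPKM values were analyzed as log2(FPKM + 1) with limma 3.58.1 in R 4.3.3, after leaving out genes that averaged under 1 FPKM over the libraries of a comparison, with Benjamini-Hochberg adjustment over all genes tested. The count-based tool named by the study's methods was not used, because the table holds no counts. SDE genes had a log2FC beyond 1 in size and an adjusted p under 0.05. A log2FC on this scale understates the change of low genes. The fit was tested on simulated data.

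Named genes were the 6 members, the SDE genes of each list (the 4 largest if more) and the 5 genes most correlated with MT2A, of which 1 is not reported here. Members and lists were chosen with earlier results of these data known.

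Low values were read as multiples of 1 counted unit: 99.4% to 99.6% of values below 1 FPKM of genes with 1 transcript were whole within 0.05, which gave the implied depths. Whether units are reads or fragments is not given. Sequences were handled with Python 3.11.15 and biopython 1.88, and figures drawn with matplotlib 3.10.9. Alternatives were other pseudocounts, filters and scalings, protein-coding genes only, GC and length correction (spline, 5 degrees of freedom), a replicate block, a joint fit and leaving out each library.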

Additional observations from a re-analysis of the deposited data

Results flagged for a closer look

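The responses of the resistant lines, each measured against its parent, were compared for 7 metallothionein genes that could be tested, and 3 passed, against 76.6% of all 12210 genes. For MT2A the difference, BxPC-3-GR minus CFPAC-1-GR, was -0.66 (limma adjusted p = 0.013), with both resistant lines lower in all 3 libraries. For MT1P3, a processed pseudogene on chromosome 20, it was -0.85 (limma adjusted p = 0.017). Some 50-base windows of MT1E and MT1X transcripts also lie in MT1P3, so its value is uncertain. For MT1A the value was 1.82 (limma adjusted p = 3.3e-07), but MT1A was listed at 0 in BxPC-3 and BxPC-3-GR, so this is only the decrease in CFPAC-1-GR with its sign turned and not a difference between 2 measured responses.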

How the results depend on the processing

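The number of SDE members was 1 in BxPC-3-GR under every alternative run. In CFPAC-1-GR it was 1, and 2 with median-of-ratios and with upper-quartile scaling, which moved the median of all genes by -0.27 and -0.42 there; over single libraries left out it ranged from 0 to 1, being 0 without CFPAC-1-GR replicate 1. In BxPC-3 against CFPAC-1 it was 3, 4 with no filter, with a minimum mean of 0.1 FPKM and with pseudocount 0.1 unfiltered, each time by adding MT1M, and 0 after GC content and length correction, also with the replicate block. In BxPC-3-GR against CFPAC-1-GR it was 3, 4 with pseudocount 0.1 and 5 with that pseudocount when no gene was filtered out. That last count added MT1G, which was SDE and higher in BxPC-3-GR (log2FC 1.43), on values of at most 8 counted units. Over single libraries left out the number ranged from 2, without CFPAC-1-GR replicate 2, to 4, without BxPC-3-GR replicate 2 or CFPAC-1-GR replicate 3. For the difference of response it was 0, and 2 after the GC and length correction, also with the block. The replicate block alone left the counts at 1, 1, 3, 3 and 0. Deviations of same-numbered libraries correlated between -0.13 and 0.09, so the numbers were not taken as pairs.

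Directions turned as follows, and the cause was not tested. With GC and length correction, with and without the block, log2FC in CFPAC-1-GR became 0.29 for MT1E, 0.53 for MT1F and -0.0069 for ATP7A; MT1X became 0.62 between parental and 0.12 between resistant lines; the difference of response became -0.51 for MT1X, -0.080 for MT1L and -0.69 for MT1F. With median-of-ratios scaling MT1P3 and MT1DP in CFPAC-1-GR became -0.18 and -0.073, and MT1X between resistant lines 0.12. With upper-quartile scaling MT1P3, MT1DP and MT1M in CFPAC-1-GR became -0.33, -0.15 and -0.11, MT1P3 between parental lines -0.11, MT1X between resistant lines 0.10, and the difference for MT1E 0.078. Leaving out single libraries, MT1P3 in CFPAC-1-GR ranged from -0.065 to 0.28, MT1DP reached -0.39, and MT1X between resistant lines ranged from -0.089 to 0.063.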
